A study of Mus musculus with 6 samples.

Results

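Tead2 (ENSMUSG00000030796), a DNA-binding factor at the end of the Hippo pathway, was measured in mouse hippocampus together with 9 genes that act with it: the other TEAD factors Tead1, Tead3 and Tead4, the coactivators Yap1 and Wwtr1, the kinases Lats1 and Lats2, and the target genes Ccn1 and Ccn2. Tead2 was picked because its values in CerM and vehicle libraries did not overlap and were higher in CerM, and the others were added for their place in the pathway. All 10 genes were found by symbol among 55414 genes. Of the 6 hippocampus libraries, 3 came from CerM mice and 3 from vehicle mice. The labels number them as biological replicates, without saying whether each is a separate mouse, so the errors here describe the spread between libraries. What CerM stands for, its dose and duration, and the strain, sex, age and genotype of the mice are not given in the sources used here. The series title concerns ceramides that rise with a disturbed gut microbiota in depression induced by corticosterone.

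In the Hippo pathway, the kinases LATS1 and LATS2 phosphorylate the coactivators YAP and TAZ (the products of Yap1 and Wwtr1), which keeps them out of the nucleus. When the kinases are inactive, YAP and TAZ enter the nucleus and bind TEAD factors, which carry the DNA-binding domain the coactivators lack, and switch on genes such as Ccn1 and Ccn2. In the mouse brain Tead2 is best known from neural precursors of the embryo, and YAP is found in astrocytes, ependymal cells and vessels rather than in neurons.

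TEAD factors bind the letters GGAATG, or CATTCC when read on the opposite strand. These letters were searched in the 250 bases before each annotated gene start, in sequences from RefSeq on build GRCm38.p6. An entry was matched for 7 of the 10 genes. The motif was found in 4 of these 7 genes (Tead3, Yap1, Wwtr1 and Ccn1) and in 14.4% of all genes with an entry. In Yap1 it began 141 bases before the start on the sense strand, and in Ccn1 103 bases before the start on the opposite strand. At the first listed start of Wwtr1 it began 136 bases upstream. The entries of Tead2, Lats1 and Lats2 did not hold these letters, which says nothing about whether the factor acts there. The windows of Tead2 (chr7:45215542-45215791, plus strand), Yap1 (chr9:8004597-8004846, minus strand) and Ccn1 (chr3:145649986-145650235, minus strand) are shown 5′ to 3′, for the factor the comparison started from, a coactivator and a target, with the motif in capitals.
Tead2: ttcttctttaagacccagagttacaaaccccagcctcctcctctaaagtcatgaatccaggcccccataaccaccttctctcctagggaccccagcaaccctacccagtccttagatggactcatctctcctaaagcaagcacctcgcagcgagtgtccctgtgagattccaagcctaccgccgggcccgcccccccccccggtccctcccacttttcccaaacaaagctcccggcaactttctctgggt
Yap1: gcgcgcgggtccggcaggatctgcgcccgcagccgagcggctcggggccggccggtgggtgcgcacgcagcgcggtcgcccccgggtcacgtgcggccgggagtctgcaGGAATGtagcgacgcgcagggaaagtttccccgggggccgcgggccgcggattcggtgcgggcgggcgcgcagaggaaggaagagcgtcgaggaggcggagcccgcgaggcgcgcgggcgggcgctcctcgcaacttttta
Ccn1: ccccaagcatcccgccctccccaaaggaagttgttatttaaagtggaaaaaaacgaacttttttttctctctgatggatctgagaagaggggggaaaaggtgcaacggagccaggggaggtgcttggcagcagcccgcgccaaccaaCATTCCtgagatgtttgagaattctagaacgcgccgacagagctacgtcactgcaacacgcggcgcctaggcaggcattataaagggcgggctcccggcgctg

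Some libraries stood apart from the rest in their makeup. Markers of hippocampal neurons (5 of 5, such as Prox1 and Wfs1) were above 0 in every library, with a summed level of 178 to 223 TPM in CerM and 120 to 201 TPM in vehicle, lowest in vehicle replicate 1. Prox1, C1ql2, Fibcd1 and Zbtb20 were each lowest there. Wfs1 was not (59.9 TPM, against 51.8 TPM in CerM replicate 1, its lowest). Choroid plexus markers (5 of 5) split the libraries across treatment, with sums of 9304, 303 and 10939 TPM in CerM replicates 1 to 3 and 253, 260 and 15710 TPM in vehicle replicates 1 to 3. Adipocyte markers (5 of 5 in the table) summed to 663 TPM in CerM replicate 3 and to at most 1.78 TPM in any other library.

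Values are in TPM, an abundance per transcript length on a common library total, so levels can be compared between genes. Averaged over the 6 libraries, the order ran from Lats2 (19.0 TPM) through Ccn2 (10.9), Yap1 (9.20), Lats1 (6.05), Ccn1 (4.81), Wwtr1 (4.70), Tead2 (3.99), Tead1 (3.50) and Tead3 (1.63) to Tead4 (0.258). Only the last pair of neighbours in this order, Tead3 and Tead4, had ranges over the 6 libraries that did not overlap. Within a library, Yap1 was above Lats1 and Tead1 above Tead3 in 6 of 6 libraries, while Ccn2 was above Yap1 in 3 of 6 and Tead2 above Tead1 in 4 of 6. The kinase Lats2 was thus the most abundant of the set by its mean, and Tead4 was close to 0 in every library.

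**Figure D1:**
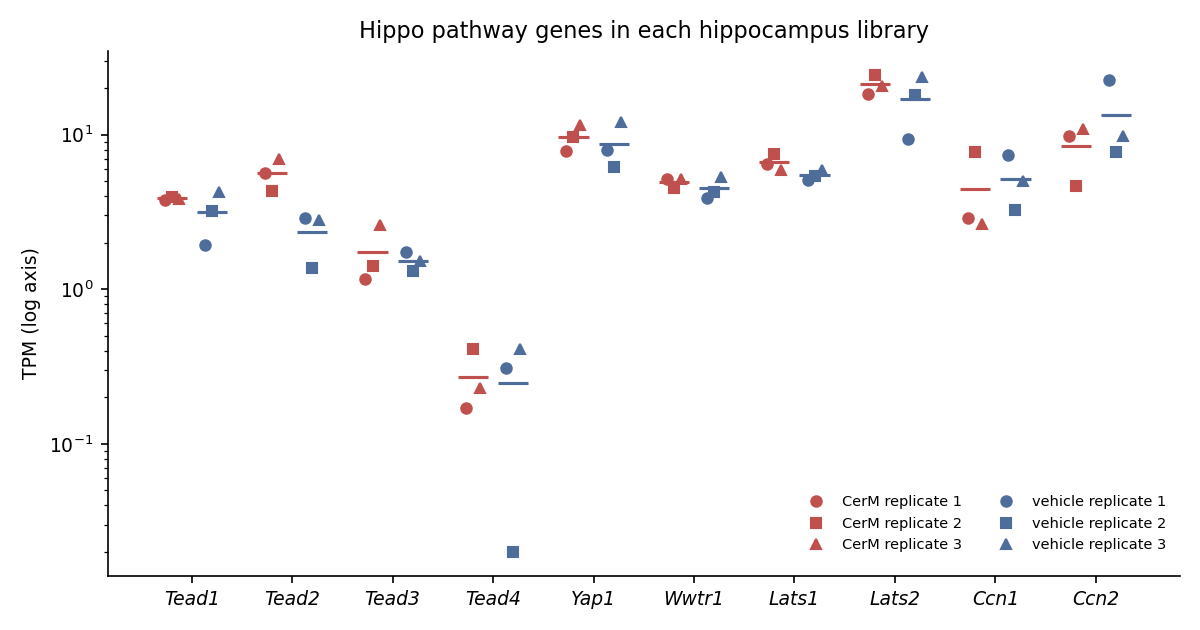
TPM (log axis) of the 10 Hippo pathway genes in each library, with CerM in red to the left of vehicle in blue; symbols mark the replicate number and horizontal lines the mean of 3 libraries. Tead2 is the gene whose CerM points all sit well above its vehicle points (4.30 to 6.94 against 1.37 to 2.89 TPM), and the Lats1 points are parted by only 0.02 TPM.

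Tead2 stood at 5.63, 4.30 and 6.94 TPM in CerM replicates 1 to 3, against 2.89, 1.37 and 2.79 TPM in vehicle replicates 1 to 3. The lowest CerM library lay 1.41 TPM above the highest vehicle library, and vehicle replicate 2 was the lowest of all. The means were 5.62 ± 1.32 TPM in CerM and 2.35 ± 0.850 TPM in vehicle (SD, n = 3 each), a ratio of 2.39. On the log2(TPM + 1) scale the fold change was 1.00 ± 0.25 (SE). These are the values for which the gene was chosen, so they are a description and carry no test.

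Among all 14916 genes with a mean of at least 1 TPM, 3.26% had groups that did not overlap and were higher in CerM, and 4.04% were lower in CerM without overlap. Of the 9 Hippo genes in the fit, Tead2 and Lats1 were higher without overlap and 0 were lower, and nothing is read from that count. The same fit called 0 genes at an adjusted p below 0.05 (limma, Benjamini-Hochberg), against 402 genes, or 2.7% of those tested, at an unadjusted p below 0.05. The choice of library moved the fold change of Tead2 between 0.77 (without vehicle replicate 2) and 1.15 (without CerM replicate 2).

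The libraries that stood apart were set beside Tead2. Within CerM, Tead2 was lower in replicate 2, which had little choroid plexus signal (303 TPM), than in replicates 1 and 3, which had much (9304 and 10939 TPM). Within vehicle, replicate 3, which had the most (15710 TPM), was at 2.79 TPM of Tead2, between replicates 1 and 2. The part of choroid plexus in the Tead2 values was not tested. The library with the most Tead2 was CerM replicate 3, which held the adipocyte transcripts and had the highest sum of mural cell markers (187 TPM). Without it the log2 fold change of Tead2 was 0.86, and without both that library and vehicle replicate 1 it was 0.98. Markers of meningeal and perivascular fibroblasts (5 of 5) summed to 55.0 to 91.4 TPM in CerM and 58.2 to 81.7 TPM in vehicle. In each group they were lowest in replicate 2 and highest in replicate 3. Tead2 in CerM ran in the same order. In vehicle Tead2 was also lowest in replicate 2, and replicates 1 and 3 were close (2.89 and 2.79 TPM). The part of these cell types in the Tead2 values was not tested.

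Markers of neural precursors and proliferation (6 of 6, among them Nes, Dcx and Mki67) summed to 9.17 to 12.1 TPM in CerM and 8.04 to 9.11 TPM in vehicle. The group sums were parted by less than 0.1 TPM, and the groups overlapped in each of the 6 genes taken alone. Eomes was highest in CerM replicate 2 (3.14 TPM), Top2a in CerM replicate 1 (2.25 TPM) and Dcx in vehicle replicate 1 (2.79 TPM). Mki67, which marks dividing cells, was at 0.28 TPM or less in every library. Markers of endothelial cells (5 of 5) summed to 56.6 to 68.2 TPM in CerM and 50.2 to 66.9 TPM in vehicle, and those of mural cells (5 of 5) to 125 to 187 TPM in CerM and 122 to 150 TPM in vehicle. Neuronal markers (5 of 5) summed to 3509 to 3552 TPM in CerM and 3643 to 4256 TPM in vehicle. The largest part of that sum is Snap25, which was highest in vehicle replicate 1 (2548 TPM), and the groups overlapped in each of the 5 genes taken alone. The part of these cell types in the Tead2 values was not tested, and in bulk tissue fewer cells of a type and less RNA per cell cannot be told apart. In an older annotation (GENCODE M21, GRCm38) the Tead2 gene overlaps Cd37 on the opposite strand, and whether the counting used strand is not given in the sources used here. Cd37, a leukocyte membrane protein gene, was at 6.06, 7.23 and 3.87 TPM in CerM and 4.68, 4.56 and 4.82 TPM in vehicle. CerM replicates 1 and 2 lay above every vehicle library, and CerM replicate 3, with the most Tead2, had the least Cd37. The part of Cd37 reads in the Tead2 values was not tested.

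The other TEAD factors showed no such separation. Tead1, the paralogue found in most tissues, had 3.76, 3.97 and 3.85 TPM in CerM, against 1.92, 3.21 and 4.28 TPM in vehicle. The CerM libraries lay close together, inside the wider vehicle range. Its log2 fold change was 0.27 with a 95% confidence interval of −0.27 to 0.82, and it was 0.04 without vehicle replicate 1 and 0.47 without vehicle replicate 3. Tead3 had 1.16, 1.41 and 2.62 TPM in CerM, against 1.73, 1.32 and 1.53 TPM in vehicle. Only CerM replicate 3 lay above the vehicle range, and the log2 fold change of 0.08 (−0.50 to 0.65) became −0.14 without that library and 0.23 without CerM replicate 1. Tead4, known for its role in the trophectoderm of the early embryo, ran from 0.17 to 0.41 TPM in CerM and 0.02 to 0.41 TPM in vehicle. It missed the minimum of 1 TPM and was the 1 gene of the 10 left out of the fit.

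Added over the 4 paralogues, TEAD transcripts came to 10.7, 10.1 and 13.6 TPM in CerM, against 6.85, 5.92 and 9.01 TPM in vehicle. Tead2 made up 52.5%, 42.6% and 50.9% of that sum in CerM, against 42.2%, 23.1% and 31.0% in vehicle. The shares did not overlap, but the lowest CerM share and the highest vehicle share were less than 1 percentage point apart. The mean share was 48.7% ± 5.31 (SD, n = 3) in CerM libraries, against 32.1% ± 9.57 (SD, n = 3) in vehicle libraries. Tead1 took 34.2% ± 5.61 in CerM and 43.3% ± 13.6 in vehicle. With Tead2 left out of the sum, the remaining TEAD transcripts came to 5.09 to 6.70 TPM in CerM and 3.96 to 6.22 TPM in vehicle, and the groups overlapped. Tead2 was above Tead1 in 3 of 3 CerM libraries, and among vehicle libraries only in replicate 1, where Tead1 was lowest. The shares rest on the gene chosen for its difference and carry no test.

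**Figure D2:**
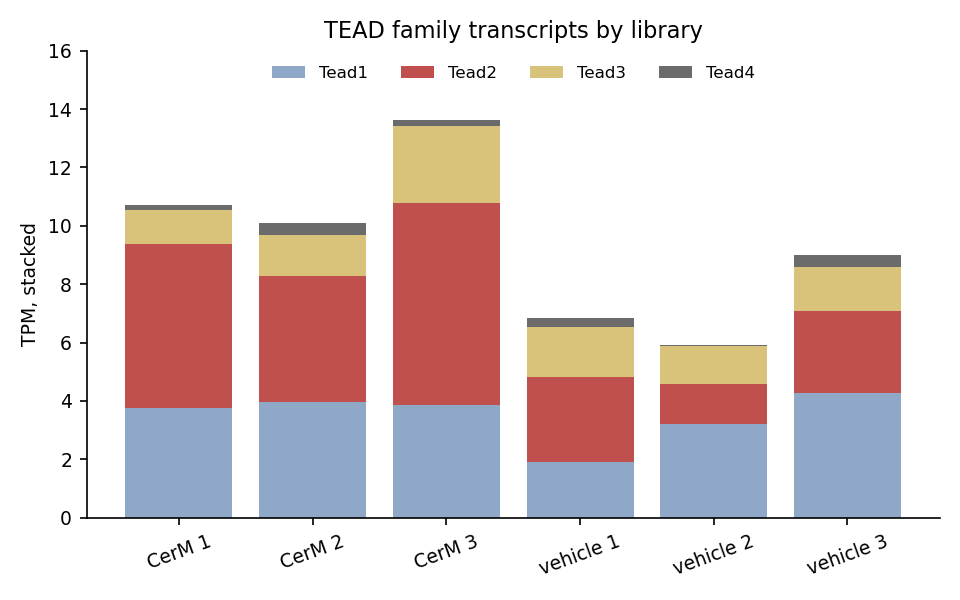
Stacked TPM of the 4 TEAD genes in each library, CerM to the left and vehicle to the right. The red Tead2 segment is 4.30 to 6.94 TPM tall in CerM and 1.37 to 2.89 TPM in vehicle, while the other segments together span 5.09 to 6.70 TPM in CerM and 3.96 to 6.22 TPM in vehicle.

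The coactivators and kinases were measured in the same fit. None of the 8 tested genes besides Tead2 was called (limma, each with an adjusted p of 0.989 or 0.99), where 0% of all genes were called, and none of them had an unadjusted p below 0.05. They were chosen for their roles and with earlier results of these data known, so their intervals are given as a description of what these libraries can bound. Of the 8, 6 had a log2 fold change above 0, where 58.8% of all tested genes did. Their median was 0.14, beside 0.03 over all tested genes, and with 1 library left out it ran from 0.04 (without vehicle replicate 1) to 0.25 (without vehicle replicate 3). In those fits the median of all genes was 0.0031 and 0.06. With quantile normalization 5 of the 8 lay above 0 with a median of 0.06, where 50.1% of all genes did and their median was 0.00012.

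Yap1 had 7.88, 9.60 and 11.5 TPM in CerM, against 7.97, 6.15 and 12.1 TPM in vehicle. Its highest and its lowest value both fell in vehicle libraries, and the log2 fold change was 0.16 (−0.40 to 0.73), and with 1 library left out it ran from −0.04 (without vehicle replicate 2) to 0.40 (without vehicle replicate 3). The highest Yap1 values of each group came from CerM replicate 3 and vehicle replicate 3, which had the highest choroid plexus sums of their groups (10939 and 15710 TPM). CerM replicate 1 had a choroid plexus sum of 9304 TPM and less Yap1 than CerM replicate 2, where the sum was 303 TPM. Astrocyte markers (5 of 5) summed to 583 to 770 TPM in CerM and 441 to 701 TPM in vehicle. The part of these cell types in the Yap1 values was not tested. Wwtr1, which encodes TAZ, had 5.14, 4.49 and 5.14 TPM in CerM, against 3.89, 4.24 and 5.31 TPM in vehicle, with a log2 fold change of 0.12 (−0.25 to 0.49). It was 0.04 without vehicle replicate 1 and 0.22 without vehicle replicate 3. The CerM values of Wwtr1 lay inside the vehicle range. Yap1 exceeded Wwtr1 in every library, by a mean ratio of 1.97 ± 0.381 (SD, n = 3) in CerM libraries, against 1.93 ± 0.428 in vehicle libraries.

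Lats1 had 6.42, 7.54 and 5.93 TPM in CerM, against 5.11, 5.39 and 5.91 TPM in vehicle. Its groups did not overlap, but CerM replicate 3 and vehicle replicate 3 were only 0.02 TPM apart. The log2 fold change was 0.23 (−0.10 to 0.57), and with each library left out in turn it ran from 0.15 to 0.30. Lats2, which is itself induced by YAP and TAZ and so closes a feedback loop, had 18.4, 24.4 and 20.5 TPM in CerM, against 9.31, 18.0 and 23.7 TPM in vehicle. Vehicle replicate 1 was lower than the other 5 libraries, and the log2 fold change of 0.38 (−0.33 to 1.08) was 0.02 without it and 0.65 without vehicle replicate 3. Vehicle replicate 1 also had the lowest summed level of hippocampal neuron markers (120 TPM), ependymal markers (24.3 TPM, against 72.4 to 124 TPM in the other 5) and oligodendrocyte markers (3212 TPM, against 4955 to 5944 TPM). Its sums were lowest too for markers of astrocytes (441 TPM), endothelial cells (50.2 TPM), choroid plexus (253 TPM) and neural precursors (8.04 TPM). Single genes of these lists differed: Aldh1l1 (34.2 TPM) and Dcx (2.79 TPM) were highest in this library. Pecam1 was lowest in CerM replicate 1 (9.11 TPM) and Kdr in vehicle replicate 2 (2.82 TPM). The sum of neuronal markers was highest in vehicle replicate 1 (4256 TPM). Of its 5 genes 2 were highest there, while Gad1 was lowest there (201 TPM). The part of these markers in the Lats2 values was not tested. Lats2 exceeded Lats1 by a ratio of 3.19 ± 0.301 in CerM and 3.05 ± 1.12 in vehicle.

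**Figure D3:**
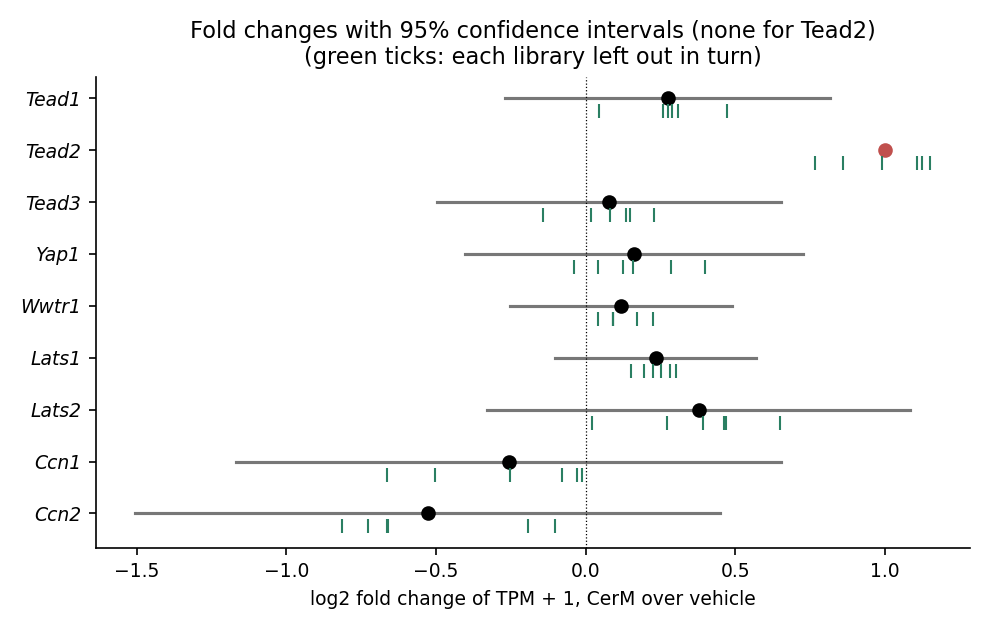
Log2 fold change of TPM + 1, CerM over vehicle, for the 9 genes in the fit, with 95% confidence intervals as grey lines and, as green ticks, the value with each library left out in turn. Tead2 (red, chosen on this contrast and drawn without an interval) stands at 1.00 with ticks from 0.77 to 1.15; every other interval covers 0, and the ticks of Tead1 and Lats2 reach down to 0.04 and 0.02.

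The classical targets Ccn1 and Ccn2 of YAP and TAZ had fold changes below 0 with all 6 libraries and did not pass the test. Ccn2, a matricellular protein gene formerly called Ctgf, had 9.83, 4.68 and 10.9 TPM in CerM, against 22.4, 7.73 and 9.75 TPM in vehicle. Vehicle replicate 1 was the highest library and CerM replicate 3 the next. The log2 fold change was −0.53 (−1.50 to 0.45), and with 1 library left out it ran from −0.81 (without vehicle replicate 2) to −0.10 (without vehicle replicate 1), with −0.19 without CerM replicate 2. Ccn2 also marks layer 6b of the neocortex, a thin sheet of neurons that lies over the white matter next to the hippocampus. Cplx3, another marker of that layer, had 10.2, 3.72 and 10.3 TPM in CerM, against 28.7, 7.10 and 5.40 TPM in vehicle. Both genes were highest in vehicle replicate 1 and lowest in CerM replicate 2. The 2 other layer 6b markers were lowest in vehicle replicate 2, and Moxd1 was highest in CerM replicate 3 (6.01 TPM, against 4.95 TPM in vehicle replicate 1). The 3 layer 6b markers, all above 0 in every library, summed to 10.2 to 18.7 TPM in CerM and 11.2 to 37.5 TPM in vehicle, with the maximum in vehicle replicate 1, most of it Cplx3. A broader list of 5 neocortex markers summed to 88.7 to 92.2 TPM in CerM and 83.0 to 91.0 TPM in vehicle. That sum is mostly Hs3st4, which was lowest in vehicle replicate 1 (48.3 TPM). Rspo1 (4.87 TPM), Rorb (5.91 TPM) and Tshz2 (26.7 TPM) were instead highest in vehicle replicate 1, and Scnn1a was highest in vehicle replicate 3 (6.31 TPM). The part of the neocortex and of layer 6b in the Ccn2 values was not tested.

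Ccn1, formerly Cyr61 and an immediate early gene as well as a YAP target, had 2.89, 7.77 and 2.63 TPM in CerM, against 7.35, 3.23 and 4.98 TPM in vehicle. The highest value of each group came from a different replicate number, and the log2 fold change was −0.26 (−1.17 to 0.65). It ranged from −0.66 without CerM replicate 2 to −0.01 without vehicle replicate 1, and was 0.22 without CerM replicate 3 and vehicle replicate 1 together, so its direction rests on these libraries. Dusp1, an immediate early phosphatase gene, had 14.7, 29.6 and 16.2 TPM in CerM, against 32.7, 12.6 and 13.3 TPM in vehicle. Ccn1 and Dusp1, which is named here after its values were seen, were both highest in CerM replicate 2 and vehicle replicate 1. That held for 3 of the 9 immediate early genes, while 8 of the 9 were highest in vehicle replicate 1. The 9 immediate early genes, each above 0 in every library, summed to 185, 222 and 174 TPM in CerM, against 374, 188 and 185 TPM in vehicle, so the whole list put vehicle replicate 1 first and CerM replicate 2 next. Their part in the Ccn1 values was not tested. The ratio of Ccn2 to Ccn1 was below 1 only in CerM replicate 2 (0.602) and ran from 1.96 to 4.16 in the other libraries.

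**Figure D4:**
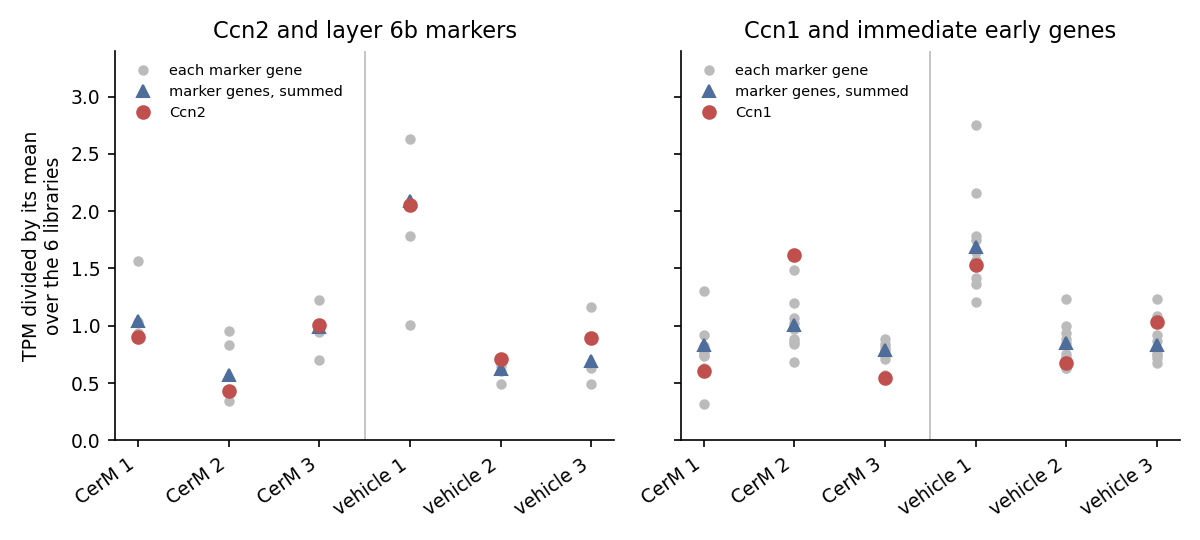
TPM divided by its mean over the 6 libraries, CerM libraries to the left of the line and vehicle libraries to the right: Ccn2 (red) with the 3 layer 6b markers, and Ccn1 (red) with the 9 immediate early genes, each marker in grey and their sum in blue. Ccn2 and both sums are highest in vehicle replicate 1 (22.4, 37.5 and 374 TPM), Ccn1 is high in CerM replicate 2 (7.77 TPM) and vehicle replicate 1 (7.35 TPM), and the grey points show that single markers differ in which library is high.

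The rest of the pathway was read from 4 lists with 48 genes, of which 41 were tested. Each list is given with the 3 genes of smallest unadjusted p and the most abundant gene. Those with the smallest p were picked on this contrast, so their fold changes and intervals are a description of selected genes. Limma called 0 of them in either direction at an adjusted p below 0.05, and 0 had an unadjusted p below 0.05, where 2.7% of all tested genes did. Upstream regulators leaned above 0, with 19 of 21 tested genes there and a median log2 fold change of 0.14, beside 58.8% and 0.03 over all tested genes. Without vehicle replicate 1, 15 of the 21 lay above 0 and the median was 0.05, where the median of all genes was 0.0031; without CerM replicate 2 the 2 medians were 0.08 and −0.02. With quantile normalization 17 of the 21 lay above 0 with a median of 0.08, where 50.1% of all genes did. Sav1, the scaffold that joins the MST kinases to LATS, had 7.93, 10.2 and 8.47 TPM in CerM, against 7.36, 6.54 and 7.14 TPM in vehicle. It was the only one of the 41 tested genes whose groups did not overlap (3.26% of all genes were higher in this way), with a log2 fold change of 0.29 (−0.03 to 0.62). Ajuba, an adaptor that inhibits LATS, had 2.17, 0.94 and 2.55 TPM in CerM, against 0.71, 0.96 and 1.13 TPM in vehicle, and CerM replicate 2 lay among the vehicle libraries. Map4k4, a kinase that can phosphorylate LATS, had a log2 fold change of 0.29 (−0.17 to 0.75). Nf2, whose product merlin recruits LATS to the membrane, was the most abundant of the list at 54.6 ± 9.22 TPM in CerM and 48.7 ± 9.42 TPM in vehicle (SD, n = 3 each). The MST kinase genes, singled out after their values were seen, stood at −0.0028 (−0.34 to 0.34) for Stk3 and 0.13 (−0.15 to 0.41) for Stk4.

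Of the 4 TEAD cofactor genes of the Vgll family, only Vgll4 and Vgll3 passed the minimum of 1 TPM. Vgll4, which competes with YAP for TEAD factors, had 19.5, 24.6 and 24.6 TPM in CerM, against 18.8, 16.2 and 22.1 TPM in vehicle. The ranges overlapped, and the log2 fold change was 0.26 (−0.10 to 0.61). Vgll3 had a log2 fold change of −0.04 (−0.56 to 0.48). Vgll1 was listed at 0 in all 6 libraries, and Vgll2 did not exceed 0.26 TPM.

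A signature of YAP and TAZ targets, taken without Lats2, Ccn1 and Ccn2, had 17 of 19 genes tested. Of these, 13 lay above 0 and 4 below, with a median of 0.12, beside 58.8% above 0 and a median of 0.03 over all tested genes. The median was 0.05 without vehicle replicate 1, 0.07 without vehicle replicate 2 and 0.22 without vehicle replicate 3. In those fits the median of all genes was 0.0031, 0.03 and 0.06. Without CerM replicate 3, 10 of 17 lay above 0 with a median of 0.098, beside 62.2% and 0.05 over all tested genes. With quantile normalization the median of the signature was 0.05 with 10 of 17 above 0, where 50.1% of all genes were. Dock5, which encodes an activator of Rac, had 3.00, 2.01 and 2.39 TPM in CerM, against 0.97, 1.38 and 2.34 TPM in vehicle, a log2 fold change of 0.46 (−0.12 to 1.04). F3, the tissue factor gene that astrocytes express, had 0.16 (−0.09 to 0.42). Tgfb2, a growth factor gene, had 20.3, 19.0 and 19.1 TPM in CerM, against 9.16, 16.2 and 21.6 TPM in vehicle. As with Lats2, vehicle replicate 1 was its lowest library. Arhgef17, the most abundant of the signature, was at 60.5 ± 9.56 TPM in CerM and 56.8 ± 9.45 TPM in vehicle. The largest fold change of the list, 0.78 (−0.54 to 2.10), belonged to Ccdc80, which is named here after its values were seen. Ccdc80 had 12.3 TPM in CerM replicate 3, the library with adipocyte transcripts, against 1.18 to 3.61 TPM in the other 5. Ankrd1, a sensitive YAP target in many cell types, did not exceed 0.14 TPM in any library. Of the remaining CCN genes only Ccn3 was tested, at 72.9 ± 8.62 TPM in CerM and 85.1 ± 10.3 TPM in vehicle, with a log2 fold change of −0.22 (−0.52 to 0.08).

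**Figure D5:**
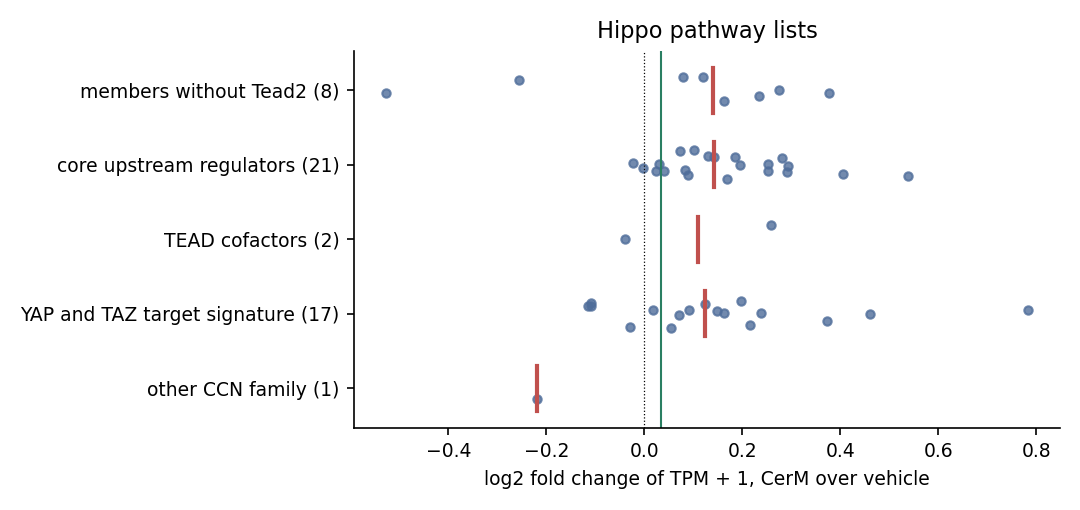
Log2 fold change of TPM + 1, CerM over vehicle, of each tested gene in the Hippo pathway lists (numbers tested in parentheses; the top row holds the 8 genes other than Tead2). Red bars are list medians and the green line is the median of all tested genes, 0.03; the medians of the upstream regulators (0.14) and of the target signature (0.12) lie to its right, and Ccn3 lies to its left at −0.22.

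The genes whose profiles over the 6 libraries were most like that of Tead2 were found by the mean absolute difference of log2(TPM + 1) after each gene's own mean was removed, among 13291 tested genes with a full symbol. They were Tns2 (mean absolute difference 0.184), Depp1 (0.196), Zfp970 (0.207), Ccm2l (0.222) and Pisd-ps1 (0.229). Tns2, which encodes a focal adhesion protein, had 14.4, 14.3 and 22.3 TPM in CerM, against 9.85, 7.91 and 12.3 TPM in vehicle, so it shared with Tead2 the highest library, CerM replicate 3, and the lowest, vehicle replicate 2. Ccm2l, which endothelial cells express, had 2.22, 2.05 and 2.30 TPM in CerM, against 1.37, 0.82 and 1.29 TPM in vehicle. Zfp970 had 15.5, 14.1 and 13.4 TPM in CerM, against 9.74, 5.60 and 11.6 TPM in vehicle. Zfp970 belongs to a family of similar zinc finger genes and Pisd-ps1 is a pseudogene, so reads may be shared with near-identical copies. None of the 8 other Hippo genes in the fit was among them: the nearest, Lats1, differed by 0.412 and ranked 740 in the same order, and the farthest, Ccn1, differed by 0.791. The order is measured from the values for which Tead2 was chosen, so it favours genes higher in CerM. It is a description, and nothing is read from these ranks.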

How the data were processed

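RNA of 6 hippocampus libraries was extracted with TRIzol and made into TruSeq libraries, per the labels' protocols. The authors deposited TPM values per gene. HISAT2, StringTie, RSEM and GRCm39 stand, without versions or roles, in the submitters' processing notes. TPM keeps no depth, so the reads behind a value are unknown and no counting interval is given. Totals ran from 993379 to 995403 TPM, and 14546 to 15058 genes reached 1 TPM per library.

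Genes with a mean of at least 1 TPM (14916) were tested with limma 3.58.1 in R 4.3.3 on log2(TPM + 1), with a variance trend, two-sided, adjusted by Benjamini-Hochberg over all of them and called below 0.05. The pseudocount of 1 understates changes of low genes. Fold changes are CerM over vehicle. The code of the fit was checked on simulated data with independent noise and with changes only in genes more abundant than Tead2. That check did not cover shifts in makeup shared by many genes. Tables and plots used Python 3.11.15.

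The members, lists and rules were chosen with earlier results of these data known. Besides the members, the genes named from each list are the 3 with the smallest p and the most abundant, and the 5 genes most like Tead2 are named. Alternatives changed the pseudocount, minimum, scaling, variance model, replicate block and libraries. Leaving out CerM replicate 3 and vehicle replicate 1 together, and the counts of the lists under each setting, were added after seeing the data.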

Additional observations from a re-analysis of the deposited data

How the results depend on the processing

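Of the 8 tested Hippo genes besides Tead2, and of the other pathway genes, 0 were called under any of the 16 alternatives. The count over all genes, 0, ran from 0 to 7 when 1 library was left out, the 7 without CerM replicate 3, and was 1 without that library and vehicle replicate 1 together. The log2 fold change of Tead2 ran from 0.77 to 1.27 over 15 alternatives (a mean of at least 5 TPM removed the gene), the highest with a pseudocount of 0.1. Its share of TEAD transcripts was 16.6 percentage points higher in CerM, and 12.1 to 21.6 with each library left out. Signs turned for Tead3 (−0.034 with quantile normalization, −0.087 without CerM replicate 3 and vehicle replicate 1, and −0.14 to 0.23 with 1 library left out, negative without CerM replicate 3), Yap1 (−0.039 to 0.40 with 1 library left out, negative without vehicle replicate 2) and Ccn1 (0.22 without CerM replicate 3 and vehicle replicate 1); the cause was not tested. The median of all genes, 0.03 with 58.8% above 0, came to 0.00012 with 50.1% above 0 under quantile normalization and to 0.0021 with 50.5% above 0 under median-ratio scaling, and the list medians fell with it (0.06, 0.08 and 0.05 under quantile normalization for the 8 Hippo genes, the upstream regulators and the target signature).

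Across genes, r between the deviations of same-numbered CerM and vehicle libraries was 0.008, 0.196 and 0.222 for replicates 1 to 3. It was −0.207 for CerM replicate 2 with vehicle replicate 3, and −0.204 for CerM replicate 3 with vehicle replicate 2. Same-numbered libraries thus went weakly together for replicates 2 and 3 but not for replicate 1. The labels name no pairs, so the main fit used none and the replicate block is given beside it. With the replicate block the count of called genes was 0 (496 at an unadjusted p below 0.05, 402 without it) and Tead2 stood at 1.00 ± 0.18 (SE). Precision is set by 3 libraries per group, and depth is unknown.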
